A study of Gallus gallus with 14 samples.

Results

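DKO-R is a chicken cell line made from DT40, a line of pre-B cells transformed by an avian leukosis virus. In DKO-R the clathrin heavy-chain genes of the cell were deleted, and the cells live on a clathrin transgene under a Tet-Off promoter, which doxycycline (DOX) silences. It was derived from DKO-S, the first line of this kind, and withstands the loss of clathrin better than its parent. The comparison described here sets DKO-R against wild-type DT40 while both were grown without DOX, so that the transgene was on in DKO-R and the endogenous genes were intact in DT40. It asks how the transcripts of the resistant line differ from those of the line it came from before clathrin is taken away.

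Clathrin forms the coat of vesicles that bring receptors in from the plasma membrane and carry lysosomal enzymes from the trans-Golgi network. Adaptor complexes such as AP-1 link the coat to its cargo. In B cells clathrin takes part in the uptake of transferrin and of the antigen receptor, and the chemokine receptor CXCR4, whose ligand is SDF-1, carries survival and migration signals.

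The series holds 14 two-colour arrays of expressed sequence tags (ESTs). The comparison uses 8 of them, 4 of DT40 and 4 of DKO-R, each of which carried RNA of one line with DOX in one dye and without DOX in the other. The channels without DOX give 2 extracts per line, cultures A and B, each measured once in Cy3 and once in Cy5. The groups therefore are wild-type DT40 without DOX (A and B) and DKO-R without DOX (A and B), and the extracts with DOX come from the same cultures and arrays. Neither the labels nor the array methods give the dose or time of DOX. While the labels call A and B biological replicates, nothing states how separately they were grown, so the spread between extracts may be partly technical. The fit drew the spread of each clone toward one pooled over all clones, with 26.03 prior against 2 residual degrees of freedom. SE and p-values of the comparison without DOX therefore rest mostly on that pooled spread. No DKO-R extract shares an array with a DT40 extract, and line and set of arrays cannot be told apart.

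Of 12854 clones printed, 6492 had a spot of confidence 0.30 or more on all 8 arrays and were tested, 951 had none on any of the 8, and the rest were kept on only some. With so few extracts the precision of all values is limited. Between 60.7% and 72.1% of the spots passed the confidence minimum, and the median clone spot read 871.3 to 3556 in Cy3 and 459 to 1350 in Cy5, where blank spots had medians of 87.1 to 269 and 70.5 to 165. Both array sets overlapped in these measures. They did not overlap at the spots of chicken genomic DNA, which were 2.83 to 3.3 times the median clone spot in Cy3 on the DT40 arrays and 4.1 to 5.26 times on the DKO-R arrays. In Cy5 the same ratio was 2.71 to 4.07 and 4.95 to 6.45. The part of this difference in the results was not tested.

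The label DKO-R could not be upheld by both kinds of array. On the 2 arrays that hold DKO-R and DKO-S together, 29 clones lay 2-fold or more apart in the mean with the same sign on both. Within-dye comparisons between the DKO-R and DKO-S arrays of the DOX experiment gave 53 values for 28 of these clones, and 49 had the opposite sign. The immunoglobulin J chain, which joins IgM and IgA into polymers, is an example. Its log2 ratio of DKO-R over DKO-S was 3.04 and 2.74 on the 2 direct arrays but -2.68 (Cy5, culture A) and -2.54 (Cy3, culture B) between the arrays used here. The direct arrays and the DOX arrays thus give opposite answers on which line is which, and the files do not show which labels hold. All values below are those of the extracts labelled DKO-R on the DOX arrays, and every direction against DT40 holds for that label only.

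One place on the arrays also stands apart. The spots are printed in 48 blocks, and in printed block 18 the signals of the DKO-R arrays hardly followed those of the DT40 arrays. Over the spots of that block, the mean log2 signal of both channels correlated with the DT40 arrays at 0.278 to 0.599 on the 4 DKO-R arrays, where the other blocks had median correlations of 0.867 to 0.874. The DT40 arrays gave 0.927 to 0.934 in the block among themselves, and the DKO-S arrays 0.648 to 0.673. The 2 arrays that hold DKO-R and DKO-S together gave 0.713 and 0.767. In the other blocks the medians were 0.934 to 0.949 on the DT40 arrays and 0.801 to 0.888 on the DKO-S arrays. On the 2 arrays with both lines they were 0.889 and 0.897. The cause was not tested.

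**Figure D1:**
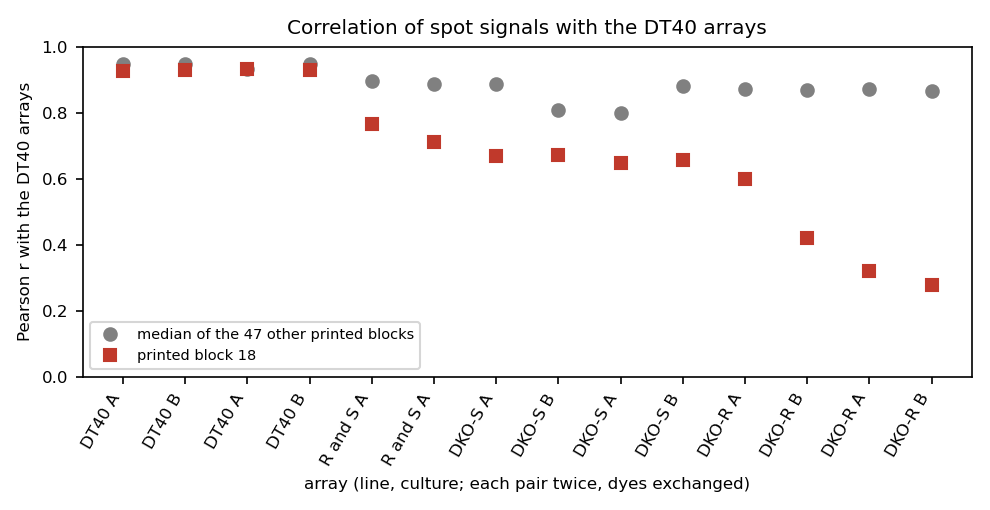
Pearson correlation (y axis, no unit) of the mean log2 signal of an array's spots with the mean of the DT40 arrays (for a DT40 array, the other DT40 arrays). Each position on the x axis is 1 of the 14 arrays, named by line and culture, with "R and S" for the arrays that hold DKO-R and DKO-S together. Squares are printed block 18 and circles the median of the other blocks. The squares lie between 0.278 and 0.599 on the DKO-R arrays and between 0.927 and 0.934 on the DT40 arrays.

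In the comparison of levels, the 62 clones tested in block 18 alone had a median difference of -0.80 (log2, DKO-R minus DT40) with a standard deviation of 1.33, and 38 were lower and 9 higher. The DT40 and DKO-R means correlated at 0.197 over these clones and at 0.656 to 0.926 in the other blocks. The extracts of each line still correlated with each other there, at 0.927 (DT40) and 0.816 (DKO-R). The main counts are therefore given with and without the block.

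The extracts labelled DKO-R and those of DT40 differed widely, but line and set of arrays cannot be told apart in this difference. Between cultures of one line the levels of the 6492 clones correlated at 0.957 (DT40) and 0.942 (DKO-R), and between a DT40 and a DKO-R extract at 0.827 to 0.851. The standard deviation of the log2 difference was 0.364 and 0.404 between cultures, and 0.666 to 0.718 between lines. With limma and Benjamini-Hochberg adjustment over all clones, 2290 clones had an adjusted p under 0.15, the false discovery rate of the study's methods, which is 35.3% of those tested. Of these, 1229 (18.9% of all tested) were higher in DKO-R and 1061 (16.3%) lower. At an adjusted p under 0.05 there were 1488 (22.9%), 782 higher and 706 lower.

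The changes were mostly moderate. The median log2 difference of all clones was 0.04, and the interquartile range ran from -0.33 to 0.40. Among the called clones, 375 were 2-fold or more higher in DKO-R and 338 were 2-fold or more lower, 371 and 314 of them outside block 18. Both DKO-R extracts lay above both DT40 extracts in 2046 clones (31.5%) and below them in 1893 (29.2%). Of the called clones 2191 (95.7%) had the same sign in Cy3 and in Cy5, and of all tested clones 67.3%. Since calls were made on the mean of both dyes, the higher share among called clones is partly built in.

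**Figure D2:**
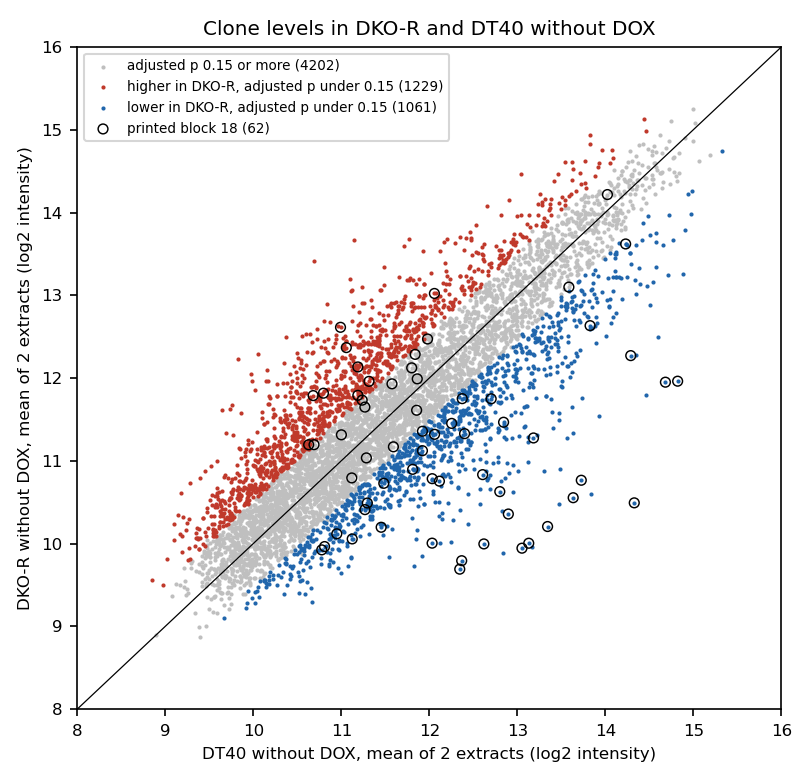
Normalised level (log2 intensity) of each of the 6492 clones tested, mean of both DT40 extracts without DOX on the x axis and of both DKO-R extracts without DOX on the y axis. Red points are the 1229 clones higher in DKO-R, blue the 1061 lower, grey those not past the threshold, and open circles the 62 clones of printed block 18. The black line marks equal levels, and most open circles lie below it.

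Without the spots of block 18, in an analysis added after the data had been seen, 2217 of 6429 clones passed, 1146 higher and 1071 lower. Of the 2290 clones called with all blocks, 2165 were called again. By quartile of brightness, from dim to bright, 26.2%, 37.5%, 44.3% and 33.1% of the clones were called. The median differences were 0.10, 0.06, 0.00 and -0.02 in the same order.

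The dyes did not carry the comparison equally. In the Cy3 channels alone 1510 of 7191 clones passed, 697 higher and 813 lower, and in the Cy5 channels alone 443 of 7446, 216 higher and 227 lower. The difference in each dye is therefore given below for several of the clones whose dyes part.

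The clones come from 5 EST libraries, which can be read from the clone names, and the libraries did not move alike. They also differed in how many printed clones were tested, 3953 of 9759 in ChEST but 1062 of 1376 in DT40subNB. In pat.pk it was 806 of 894, in pgn1c 470 of 550 and in dkfz426 201 of 275. The part of this filter in the library differences was not tested. Of 3953 ChEST clones tested, 25.3% were higher in DKO-R and 11.5% lower, with a median difference of 0.15. In the 4 other libraries more clones were lower than higher. DT40subNB, whose name carries that of the cell line, had 95 of 1062 clones higher (8.95%) and 254 lower (23.9%), with a median of -0.13. The pat.pk library had 7.69% higher and 23.4% lower of 806 clones, pgn1c 10.6% and 24.5% of 470, and dkfz426 9.95% and 24.9% of 201. Outside block 18, ChEST had 25.4% higher and 10.9% lower and DT40subNB 9.01% and 23.5%.

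**Figure D3:**
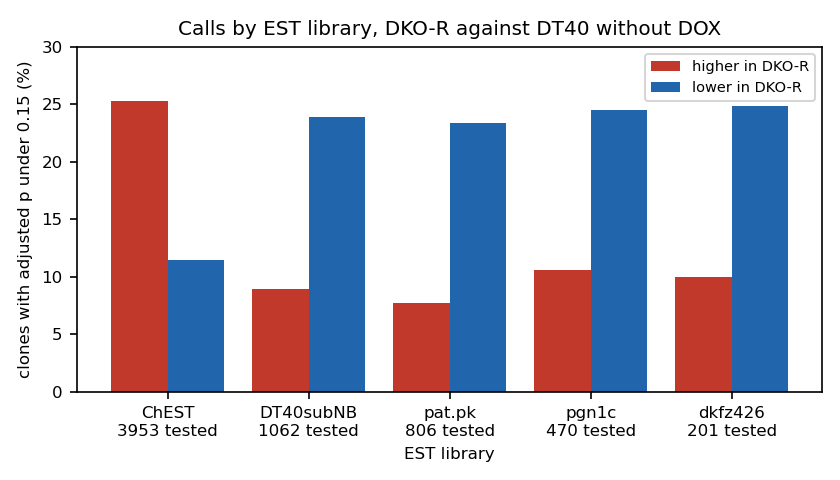
Percent of the tested clones of each EST library (x axis, with the number tested) that were higher (red) or lower (blue) in DKO-R than in DT40 without DOX at an adjusted p under 0.15. ChEST reaches 25.3% higher against 11.5% lower, and in the other libraries the blue bar is the taller one.

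Position on the array moved with these shares. Printed blocks 33 to 48 hold several of the lowest block medians, down to -0.49 in block 39, where 49.3% of the 134 clones were lower. Block 9 had the highest median, 0.38, with 52 of 153 clones higher and 5 lower. Differences between blocks made up 10.6% of the variance of the log2 difference. Within blocks 1 to 32 without block 18, ChEST clones had a median of 0.18 with 25.8% higher and 7.47% lower, and DT40subNB clones a median of -0.07 with 8.91% higher and 16.1% lower. The pgn1c clones there had a median of 0.00, with 13.4% higher and 15.5% lower. Once the block medians of each channel were removed, 2700 clones passed, 1334 higher and 1366 lower.

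Some clones gave a usable spot in one line only. On all 4 DT40 arrays and on no DKO-R array were 151 clones, 134 of them from ChEST and 9 in block 18. On all 4 DKO-R arrays and no DT40 array were 107 clones, 101 of them from ChEST and 23 in block 18. Of all 12854 clones printed, 9759 were from ChEST and 258 lay in block 18 alone. The clones kept in 1 line only have no fold change, since the confidence of a spot is not a level.

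Gene names are known for the clones that the study tabulated as differing between DKO-R and DKO-S, 47 clones under 48 identifiers. Of these, 45 were measured on all 8 arrays, 40 with a named gene and 5 of unknown identity. Among the 45, 16 were higher in DKO-R, 3 were lower and 26 did not pass. That is 42.2% called, beside 35.3% of all clones, with a median difference of 0.37 beside 0.04. Of all clones 18.9% were higher and 16.3% lower. Of the pat.pk clones 7.69% were higher and 23.4% lower, and of the pgn1c clones 10.6% and 24.5%. The list is no independent sample of the genome. It was drawn up by the study on arrays that carried an extract labelled DKO-R culture A without DOX, the label of an extract used here. Whether it is the same extract is not known, since the labels of the array sets disagree. The members of the list did not behave like other clones between cultures. The level in DKO-R culture B exceeded that in culture A for 40 of the 45 clones, by a median of 0.63, where 48.3% of all tested clones did so with a median of -0.02, and 64.7% of the clones of the pat.pk and pgn1c libraries, to which most of the list belongs, with a median of 0.12. In DT40 the level in culture B exceeded that in A for 11 of the 45, for 66.3% of all clones and for 57.8% of those libraries. Without DKO-R culture B, 12 of the 19 calls were lost. The 7 that stayed were MAP2K3, ITGB5, THUMPD2, RPL10A, 1 of the identifiers of CD63 and 2 unknown clones. Without DT40 culture A 5 calls were lost and without DT40 culture B 9, and 3 of the 19 clones, THUMPD2, CD63 (pat.pk0048.b9) and the unknown pgn1c.pk002.j23, passed whichever of the 4 cultures was left out. For the other called clones the call depended on at least 1 culture. None of the 19 kept its call in every alternative processing. THUMPD2 and CD63 (pat.pk0048.b9) lost it in Cy5 alone, and pgn1c.pk002.j23 lost it in Cy3 alone.

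**Figure D4:**
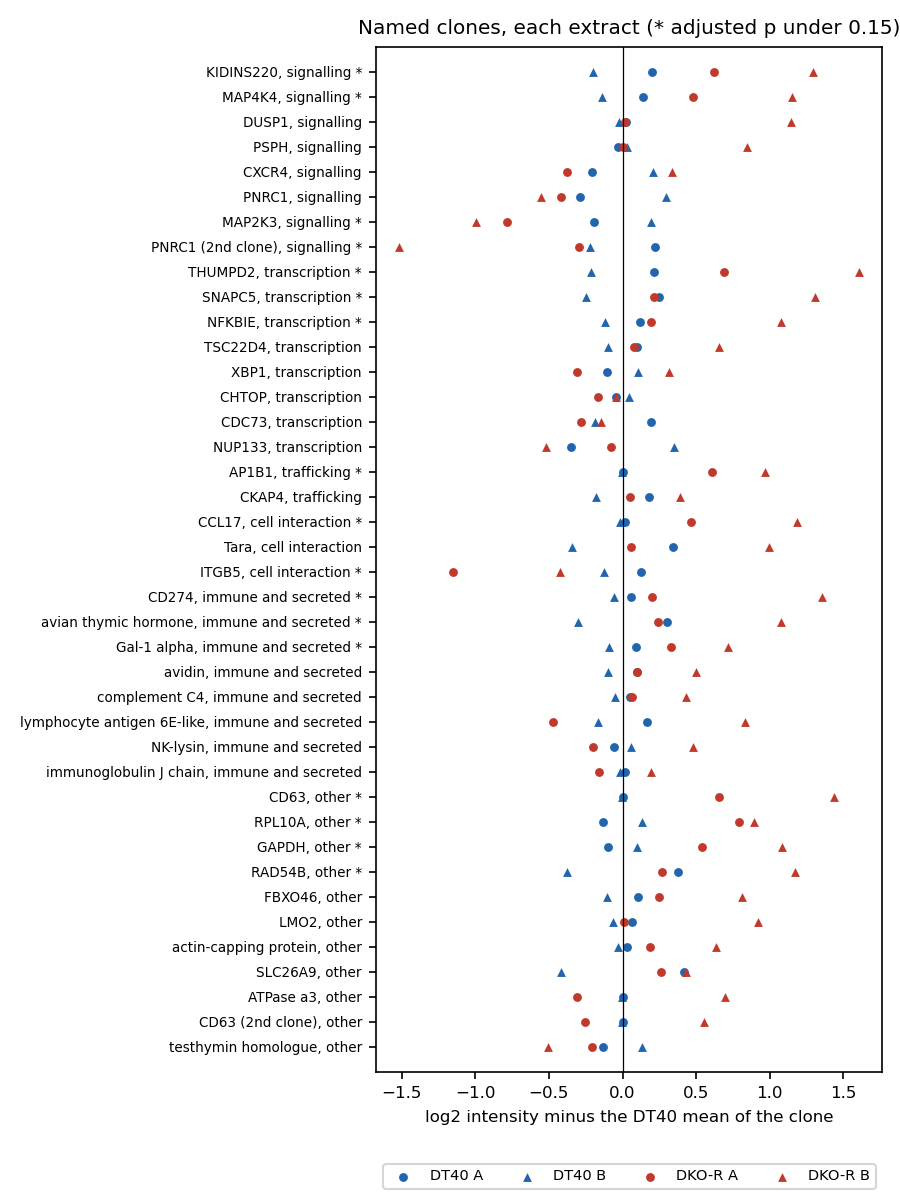
Level of each named clone in each extract without DOX, as log2 intensity minus the mean of both DT40 extracts of that clone (x axis). Blue is DT40 and red DKO-R, circles are culture A and triangles culture B, and an asterisk marks an adjusted p under 0.15. The red triangles of culture B lie to the right of the red circles of culture A in most rows, and MAP2K3 and ITGB5 have both red points left of both blue ones.

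In signalling, 2 of the 8 clones measured were higher and 2 lower, where 18.9% of all clones were higher and 16.3% lower. MAP2K3, the kinase that activates p38, read 11.68 and 12.06 in DT40 cultures A and B and 11.09 and 10.88 in DKO-R (log2 intensity). It was lower in DKO-R by a log2 difference of -0.89 ± 0.26 (SE of the fit, n = 2 extracts per line), or 1.85-fold, at an adjusted p of 0.0127 in limma. Both DKO-R extracts lay below both DT40 extracts, as in 29.2% of all clones, and the dyes gave like sizes, -0.82 in Cy3 and -0.96 in Cy5. Neither dye passed alone, with an adjusted p of 0.166 in Cy3 and 0.199 in Cy5 in limma. The call was lost without DT40 culture B, at -0.70 and an adjusted p of 0.18, and at a confidence minimum of 0.60 the difference was -0.51.

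MAP4K4, a kinase upstream of JNK, read 12.99 and 12.71 in DT40 and 13.327 and 13.995 in DKO-R. Its difference was 0.82 ± 0.27 with an adjusted p of 0.0275 in limma. It was 0.48 without DKO-R culture B and 0.68 without DT40 culture B, and the call was lost in both. KIDINS220, a membrane scaffold and substrate of protein kinase D, read 12.11 and 11.70 in DT40 and 12.53 and 13.20 in DKO-R. It was higher by 0.96 ± 0.27 (adjusted p of 0.0112), with 0.47 in Cy3 against 1.45 in Cy5, and by 0.62 (adjusted p of 0.173) without DKO-R culture B. For both kinase and scaffold the DKO-R extracts lay above the DT40 extracts, as in 31.5% of all clones, and culture B was the higher DKO-R extract. In Cy3 alone KIDINS220 overlapped, at 11.58 in DKO-R culture A and 11.73 in DT40 culture B.

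PNRC1, a coactivator of nuclear receptors, has 2 clones. In clone pat.pk0061.e6f DT40 read 12.69 and 12.25 and DKO-R 12.17 and 10.95, a difference of -0.91 ± 0.31 (adjusted p of 0.0308). In clone ChEST358J1 DT40 read 12.01 and 12.60 and DKO-R 11.88 and 11.75, a difference of -0.49 ± 0.26 that did not pass (adjusted p of 0.195). Neither clone's groups overlapped, with DKO-R below DT40 as in 29.2% of all clones. But the second had -1.10 in Cy3 and 0.13 in Cy5, and the first -1.34 in Cy3 and -0.48 (adjusted p of 0.686 in limma) in Cy5. The size of the first rested on DKO-R culture B, without which it was -0.30 (adjusted p of 0.583), and it was -1.52 without DKO-R culture A and -0.68 (adjusted p of 0.193) without DT40 culture A.

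CXCR4, the SDF-1 receptor, did not pass. Its clone read 11.19 and 11.61 in DT40 and 11.02 and 11.74 in DKO-R, so that the cultures of each line lay farther apart than the lines. The difference was -0.02 ± 0.27 (adjusted p of 0.971), with -0.24 in Cy3 and 0.21 in Cy5. DUSP1, a phosphatase of MAP kinases, had a difference of 0.58 ± 0.29 (adjusted p of 0.16), its DKO-R values being 11.58 and 12.71. PSPH, which makes serine from phosphoserine, had 0.42 ± 0.28 (adjusted p of 0.293).

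Among the 8 transcription and RNA genes measured, 3 were higher and none was lower. That is 37.5% called, beside 35.3% of all clones (18.9% higher and 16.3% lower). THUMPD2, a protein with an RNA-binding THUMP domain, showed the largest difference of the named genes. It read 12.61 and 12.18 in DT40 and 13.083 and 14 in DKO-R, 1.15 ± 0.29 higher or 2.22-fold (adjusted p of 0.00419). The dyes gave 1.01 and 1.29, and without DKO-R culture B it still passed at 0.69 (adjusted p of 0.121).

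NFKBIE, an inhibitor of NF-kappaB, read 12.64 and 12.39 in DT40 and 12.71 and 13.59 in DKO-R, 0.63 ± 0.28 higher (adjusted p of 0.103). SNAPC5, a subunit of the complex that activates small nuclear RNA genes, read 12.27 and 11.77 in DT40 and 12.24 and 13.33 in DKO-R, 0.76 ± 0.30 higher (adjusted p of 0.0643). Both differences came mainly from one culture and one dye. Without DKO-R culture B they were 0.19 and 0.22, NFKBIE was 1.12 in Cy3 but 0.15 in Cy5, and SNAPC5 was 0.05 in Cy3 but 1.47 in Cy5. Without DT40 culture B they were 0.51 and 0.52. With no confidence minimum neither passed, at 0.67 and 0.80 (adjusted p of 0.208 and 0.204 in limma). With block medians removed NFKBIE was 0.41 and did not pass (adjusted p of 0.244), while SNAPC5 was 0.74 and passed.

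XBP1, the transcription factor of the unfolded protein response, read 12.24 and 12.45 in DT40 and 12.03 and 12.66 in DKO-R, a difference of 0.00 ± 0.27 (adjusted p of 0.998). TSC22D4, CHTOP, CDC73 and NUP133 had differences of -0.30 to 0.37 and did not pass. DDIT3 (CHOP), a factor induced by stress of the endoplasmic reticulum, was kept on all 4 DT40 arrays and 2 of 4 DKO-R arrays and was not tested, as were the ESCRT protein CHMP7 and SRP54 of the signal recognition particle.

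Of the trafficking clones 2 were tested. AP1B1, the beta subunit of the AP-1 adaptor to which clathrin binds, read 11.04 in both DT40 cultures and 11.65 and 12.01 in DKO-R. It was higher by 0.79 ± 0.26 (adjusted p of 0.025), with 0.30 in Cy3 and 1.28 in Cy5, and by 0.61 (adjusted p of 0.181) without DKO-R culture B. The spots of AP1B1 lie in blocks 21 and 29, which had medians of 0.35 and 0.34. With block medians removed AP1B1 was 0.48 higher and only just passed (adjusted p of 0.147 in limma). CKAP4, a protein of the endoplasmic reticulum, had a difference of 0.22 ± 0.26 that did not pass, with 0.65 in Cy3 and -0.20 in Cy5.

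Of the 3 cell interaction clones measured, 1 was higher and 1 lower, where 18.9% of all clones were higher and 16.3% lower. ITGB5, the beta 5 integrin subunit, read 13.79 and 13.54 in DT40 and 12.52 and 13.24 in DKO-R, -0.79 ± 0.27 lower (adjusted p of 0.0345), with -0.31 in Cy3 and -1.27 in Cy5. CCL17, a chemokine that binds CCR4, read 11.15 and 11.11 in DT40 and 11.60 and 12.32 in DKO-R, 0.83 ± 0.27 higher (adjusted p of 0.0254), with 1.45 in Cy3 and 0.21 in Cy5. With a single dye, ITGB5 passed in neither and CCL17 in Cy3 only. Without DKO-R culture A, its lower DKO-R extract, ITGB5 was -0.43 (adjusted p of 0.404), and without DT40 culture A -0.66 (adjusted p of 0.209). Without DKO-R culture B, CCL17 was 0.47 (adjusted p of 0.339). The actin-binding protein Tara had 0.53 ± 0.30 and did not pass, with -0.12 in Cy3 and 1.18 in Cy5.

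Among 8 immune and secreted genes, 3 were higher and none was lower. That is 37.5% called, beside 35.3% of all clones (18.9% higher and 16.3% lower). CD274, the ligand of PD-1, read 12.22 and 12.10 in DT40 and 12.36 and 13.51 in DKO-R, 0.78 ± 0.30 higher (adjusted p of 0.0565). Avian thymic hormone, a parvalbumin, was higher by 0.66 ± 0.29 (adjusted p of 0.0992) and the defensin Gal-1 alpha by 0.53 ± 0.26 (adjusted p of 0.147). With block medians removed Gal-1 alpha was 0.19 and did not pass (adjusted p of 0.595 in limma). Without DKO-R culture B the differences of CD274, avian thymic hormone and Gal-1 alpha were 0.20, 0.24 and 0.33. Without DT40 culture B they were 0.72, 0.36 and 0.44. Their calls were lost in both settings, and that of Gal-1 alpha also without DT40 culture A, at 0.62.

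The immunoglobulin J chain read 10.73 and 10.69 in DT40 and 10.55 and 10.90 in DKO-R, a difference of 0.02 ± 0.26 (adjusted p of 0.974). The groups overlapped, and the dyes gave -0.52 and 0.55. With the DKO-S arrays normalised alongside, the extracts labelled DKO-S, each in the dye of its usable array, read 13.12 (A, Cy5) and 12.67 (B, Cy3), where DKO-R read 10.45 and 10.13 and DT40 10.51 and 10.86 in the same dyes. This is the gene whose direction between DKO-R and DKO-S depends on the array set. The other genes of this group, NK-lysin, complement C4, the lymphocyte antigen 6E-like protein and avidin, had differences of 0.14 to 0.30 and did not pass.

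Of the 11 remaining clones with a name, 4 were higher and none lower. That is 36.4% called, beside 35.3% of all clones (18.9% higher and 16.3% lower). RPL10A, a protein of the large ribosomal subunit, read 11.38 and 11.65 in DT40 and 12.30 and 12.40 in DKO-R, 0.84 ± 0.25 higher (adjusted p of 0.0165). Its DKO-R extracts lay above both DT40 extracts, as in 31.5% of all clones. But the difference was 1.46 in Cy3 and 0.22 in Cy5, and -0.39 when spots of low confidence were kept. Without DT40 culture A it was 0.71 (adjusted p of 0.173), and with block medians removed 0.47 (adjusted p of 0.152). GAPDH, a glycolytic enzyme often used as a reference transcript, read 11.47 and 11.67 in DT40 and 12.11 and 12.65 in DKO-R. It was 0.81 ± 0.26 or 1.76-fold higher in DKO-R (adjusted p of 0.0246 in limma). The difference was 0.54 without DKO-R culture B and 0.71 without DT40 culture A, and the call was lost in both. In Cy3 it was 1.11 and in Cy5 0.52.

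CD63, a tetraspanin of late endosomes, was printed under 2 identifiers that differ in a final letter. Under pat.pk0048.b9 it read 11.93 and 11.92 in DT40 and 12.58 and 13.36 in DKO-R, 1.05 ± 0.27 higher (adjusted p of 0.00575). Under pat.pk0048.b9f it read 12.21 and 12.20 in DT40 and 11.95 and 12.75 in DKO-R, a difference of 0.15 ± 0.27 (adjusted p of 0.743). Without DKO-R culture B the first was 0.66 and still passed (adjusted p of 0.142). The values of the same named clone thus parted between its 2 identifiers, printed in blocks 17 and 4. With block medians removed the differences were 1.15 and -0.27, and the cause was not tested. RAD54B, a protein of homologous recombination, was 0.72 ± 0.30 higher (adjusted p of 0.0807), but 1.46 in Cy3 and -0.02 in Cy5, and its extracts overlapped. It was 0.27 without DKO-R culture B and 0.34 without DT40 culture B, and did not pass in either. FBXO46 and LMO2 had differences of 0.53 and 0.47 and did not pass.

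Of the 5 unknown clones, pgn1c.pk002.j23 read 11.61 and 11.18 in DT40 and 12.36 and 12.90 in DKO-R, 1.24 ± 0.27 higher (adjusted p of 0.00131). Clone pgn1c.pk003.j3 was 0.99 ± 0.28 higher (adjusted p of 0.0102). Both stayed past the threshold without DKO-R culture B, at 0.97 and 0.69, and the second was 0.66 (adjusted p of 0.212) without DT40 culture B.

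The largest differences on the array were in clones without a gene name. The 15 highest, taken among called clones with the same sign in both dyes and no overlap between extracts, were 1.93 to 2.73 higher in DKO-R (3.82-fold to 6.63-fold). They lay in 13 printed blocks, none of them block 18, and 12 were ChEST clones. ChEST made up 3953 of the 6492 clones tested and 1002 of the 1229 called higher. Among the 15 highest, DT40subNB_3C12 was 1.95 higher but 0.51 and not past the threshold with no confidence minimum. ChEST843I13 read 9.93 and 11.44 in DT40 and 13.19 and 13.64 in DKO-R, 2.73 ± 0.33 higher (adjusted p of 1.11e-06), with 2.72 in Cy3 and 2.74 in Cy5. In ChEST693E14 the cultures of each line lay close together once the dyes were averaged, at 11.11 and 11.09 in DT40 and 13.21 and 13.18 in DKO-R. Within a dye they lay farther apart. DT40 cultures A and B read 11.62 and 10.71 in Cy3 and 10.60 and 11.46 in Cy5. DKO-R cultures A and B read 13.38 and 13.74 in Cy3 and 13.03 and 12.61 in Cy5. Normalised together with the DKO-S arrays, ChEST693E14 read 10.46 (A, Cy5) and 10.56 (B, Cy3) in DT40, 12.86 and 13.56 in DKO-R and 12.37 and 12.54 in DKO-S. ChEST843I13 in the same order read 9.97 and 11.54, 12.70 and 13.19, and 12.13 and 12.80. In all of the 15 highest, every usable DKO-S value lay above the DT40 value of the same dye. A level above DT40 was thus not particular to the extracts labelled DKO-R, though both lines are set against the same DT40 extracts.

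The 15 lowest, by the same rule, had log2 differences of -2.62 to -3.84, and 10 of them were printed in block 18. With no confidence minimum these 10 had differences of -0.49 to -3.27, and with block medians removed -1.08 to -2.30. The 5 others, at -2.67 to -3.24, had -2.66 to -3.47 and -2.75 to -3.36 in the same settings. They were ChEST127L13, ChEST323M5, ChEST215P11, DT40subNB_13E1 and DT40subNB_15B5. ChEST323M5 read 13.31 and 13.02 in DT40 and 10.17 and 9.75 in DKO-R, a difference of -3.20 ± 0.26 (adjusted p of 2.63e-09). ChEST215P11 read 13.54 and 13.42 in DT40 and 10.47 and 10.50 in DKO-R, a difference of -2.997 ± 0.252, or 7.98-fold lower.

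DT40subNB_13E1 fell by 2.94 on the log2 scale, from 12.89 and 12.79 in DT40 to 9.88 and 9.90 in DKO-R. The dyes parted, with -3.74 in Cy3 and -2.15 in Cy5, and DKO-R culture A read 8.64 in Cy3 and 11.12 in Cy5. Of its 4 DKO-R channels 3 lay above the 95th percentile of the blank spots. Normalised with the DKO-S arrays, DT40subNB_13E1 read 12.52 (A, Cy5) and 12.74 (B, Cy3) in DT40, 10.97 and 9.74 in DKO-R and 12.90 and 12.53 in DKO-S. ChEST215P11 in the same order read 13.35 and 13.20, 10.13 and 10.24, and 11.19 and 10.30. The low level thus stood beside a DKO-S level near that of DT40 in the first clone and nearer that of DKO-R in the second. DKO-S and DKO-R are set against the same DT40 extracts here. Once block 18 was set aside, 5 of the 15 lowest clones lay in block 42, which itself had a median of -0.37 and a DT40 to DKO-R correlation of 0.656.

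**Figure D5:**
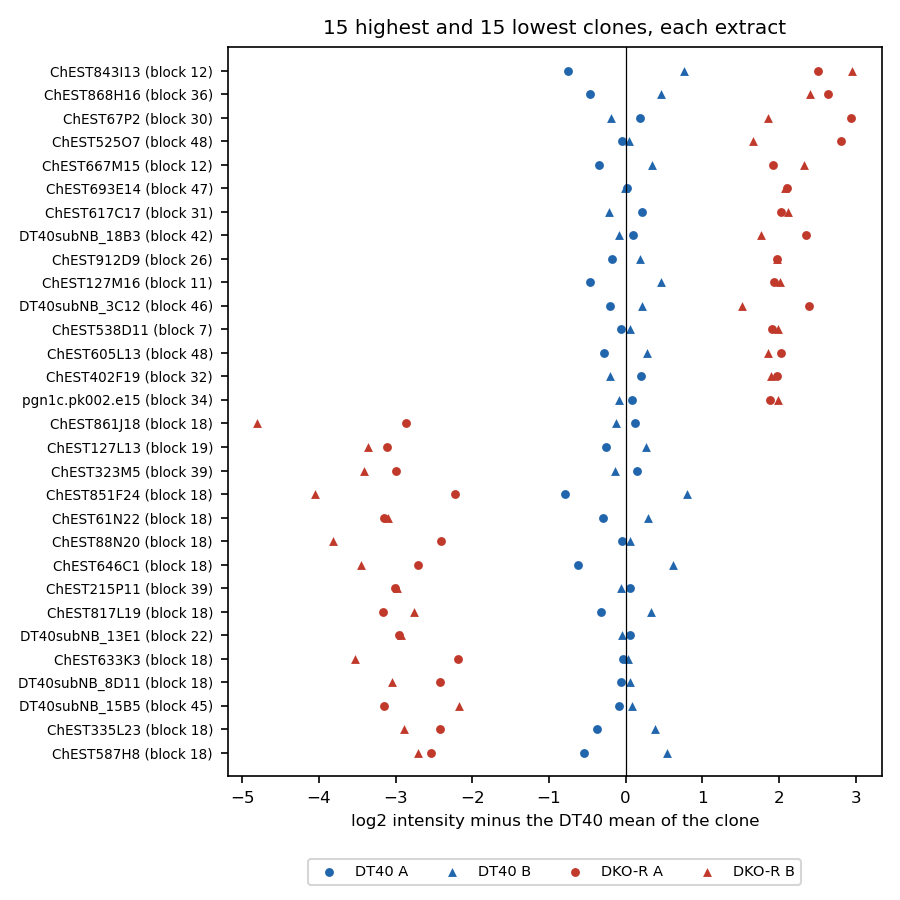
Level of the 15 highest and 15 lowest clones in each extract without DOX, as log2 intensity minus the mean of both DT40 extracts of that clone (x axis), with the printed block in brackets. Blue is DT40 and red DKO-R, circles are culture A and triangles culture B. In every row the red points lie apart from the blue ones, since the rule asked for it, and 10 of the 15 lowest rows are from block 18.

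The extracts with DOX on the same 8 arrays gave a like number of calls. In them 2363 of 6492 clones (36.4%) passed, 1281 higher in DKO-R (19.7%) and 1082 lower (16.7%), with 1406 (21.7%) at an adjusted p under 0.05. Without block 18 there were 2334. Of the named genes, MAP2K3 was -1.10 ± 0.24 (adjusted p of 0.00591), THUMPD2 1.09 (adjusted p of 0.0215), CCL17 0.85 (adjusted p of 0.0189) and ITGB5 -0.80 (adjusted p of 0.0245) with DOX. KIDINS220 was 0.14 (adjusted p of 0.703), AP1B1 0.20 (adjusted p of 0.568) and MAP4K4 0.53 (adjusted p of 0.218) with DOX and did not pass. These extracts share their arrays with those without DOX, so they do not separate line from array set.

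The difference between the lines was then tested for a change with DOX, on the ratio of each culture with over without DOX, in which a level common to an array cancels. No clone passed at an adjusted p under 0.15 in limma (0 of 6492, or 0%), and 390 had an unadjusted p under 0.05. For KIDINS220, whose difference was 0.96 without DOX and 0.14 with it, the adjusted p of the change was 0.777, so a loss of the difference with DOX was not shown. The same test had an adjusted p of 0.777 for AP1B1 and 0.913 for MAP4K4.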

How the data were processed

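The authors scanned the slides and deposited, for each of 27648 spots on an array, the intensity of both channels and the confidence of the spot as a fraction (0 to 1), as BlueFuse for Microarrays 1.1 (build 2765) gave them per the file headers, without normalisation. Channel 1 was taken as Cy3 and channel 2 as Cy5 from the labels. The deposited table of log2 values for the whole series was not used here.

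Control spots and 2 clone identifiers printed more than 50 times were left out. Spots of confidence 0.30 or more, the minimum of the methods, were kept. On the log2 scale, dye bias was removed from each array by loess (span 0.3), and mean signals were then equalised over the 8 arrays by Aquantile, where the methods name a global normalisation of ratios, which does not apply to single channels. The spots of a clone were averaged, then the Cy3 and Cy5 values of an extract. With lmFit and eBayes of limma 3.58.1 (R 4.3.3), the fit compared 2 DKO-R with 2 DT40 extracts, with 2 residual and 26.03 prior degrees of freedom, and p-values were adjusted by Benjamini-Hochberg over all 6492 clones. The fit was tested on simulated data first.

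Named genes are the clones tabulated by the study, and beside them the 15 highest and 15 lowest called clones with the same sign in both dyes and extracts that do not overlap. The members, lists and rules were chosen with earlier results of these data known. EST clones with no name in that table are given by their identifier, and no sequence is shown. Levels of different clones are not comparable with each other. DKO-S values come from a normalisation of 12 arrays and, because 2 DKO-S arrays kept only 2.13% and 22.7% of their spots, from culture A in Cy5 and culture B in Cy3 only. Alternatives changed the confidence minimum, normalisation, dyes, spread, filter on dim clones and extracts, one at a time.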

Additional observations from a re-analysis of the deposited data

How the results depend on the processing

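With the call threshold at an adjusted p under 0.05, 1488 clones differed without DOX and 1406 with DOX. With no confidence minimum the counts were 4235 and 4163 of 12854 clones, and with a minimum of 0.60 they were 778 and 875 of 2643, where fewer clones were tested. Cy3 alone gave 1510 without DOX and Cy5 alone 443. The other settings for the comparison without DOX gave 1907 to 2700 calls, and leaving out 1 culture gave 1589 to 1998 (1645 to 2050 with DOX). Scale normalisation turned the balance to 1106 higher and 1252 lower, and Cy3 alone to 697 and 813. Without DT40 culture A it was 789 and 800, and without DT40 culture B 970 and 635. For the change with DOX, 2 clones passed with no confidence minimum and 0 to 3 when 1 culture was left out.

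Deviations of same-numbered cultures correlated at -0.103, with 2 pairs only, so the letters were not taken to pair the lines. Culture as a replicate block gave 2014 calls without DOX, 2187 with DOX and 0 for the change with DOX. The crossed replicate block, added after the data had been seen, gave 2349 calls without DOX.

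Of 377 repeats of the 19 called tabulated clones, 289 kept the call. Most losses came in Cy5 alone (16 clones), without DKO-R culture B (12), in Cy3 alone (11) and without DT40 culture B (9). RAD54B turned to -0.022 in Cy5 alone and RPL10A to -0.39 with no confidence minimum, and the cause was not tested. The 15 highest, 15 lowest and the next 10 lowest clones outside block 18 kept 744 of 752 calls, though those in block 18 shrank with no confidence minimum, ChEST646C1 to -0.49. All these clones had been picked on the same data as the most extreme calls, with dyes of like sign and extracts apart. That rule favours keeping the call, so their share does not compare with that of the tabulated clones.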
